A study of Mus musculus with 96 samples.

Results

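Cartilage and skeletal muscle were compared in 12 of the 96 libraries of an organism-wide survey of 16 mouse tissues, the 6 labelled cartilage and the 6 labelled muscle. Each tissue gave 3 libraries from wild-type (wt) mice and 3 from Scx-/- mice, all aged 3 weeks. Scx encodes scleraxis, a basic helix-loop-helix transcription factor of tendon and ligament progenitors, and Scx-/- mice lack a working copy. Whole tissues were frozen at necropsy and their total RNA was barcoded, pooled and sequenced from the 3′ ends of transcripts. Which cartilage and which muscle were taken, and whether both came from the same mouse, is not given in the sources used here. Because nothing says that libraries of a group came from separate mice, p-values measure the spread between libraries.

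Chondrocytes and muscle fibres both arise from mesoderm and build opposite kinds of tissue. A chondrocyte secretes a matrix of type II, IX and XI collagen and aggrecan under control of SOX9, and a hypertrophic chondrocyte of the growth plate replaces part of it with type X collagen before the matrix is mineralized. A muscle fibre fills itself with sarcomeres, whose myosin heavy chain sets its speed, from type I (slow, Myh7) through IIA (Myh2) and IIX (Myh1) to IIB (fastest, Myh4). During growth before birth the heart actin gene Actc1 is also used in skeletal muscle and then gives way to Acta1.

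The cartilage libraries held 205359 to 276018 counts and 7516 to 8821 detected genes. The muscle libraries held 30409 to 871531 counts and 3385 to 11171 detected genes, and the lowest of both belonged to wild-type muscle replicate 1, which stood apart from the other 5. Its mean Pearson correlation with the other muscle libraries was 0.575, against 0.784 to 0.807 for the rest (log2(CPM + 1), across genes, which are not independent replicates). All 6 cartilage libraries correlated about as well with muscle (0.718 to 0.738) as with one another (0.728 to 0.744). Levels are given as CPM, counts of a gene relative to the counts of its library, on library sizes scaled by the trimmed mean of M values (TMM). The TMM factor was 1.60 for wild-type muscle replicate 1, 0.722 to 0.859 for the other muscle libraries and 1.09 to 1.18 for cartilage, so that its levels relative to other libraries depend on the scaling. Differences are log2 fold changes of cartilage over muscle ± SE from edgeR's quasi-likelihood test with genotype as a covariate, called at a Benjamini-Hochberg adjusted p under 0.05.

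Of 15938 genes with a count in the 12 libraries, 173 were higher in cartilage (1.09%) and 83 were higher in muscle (0.521%). The groups of 6 did not overlap for 85 of the first and 34 of the second, against 0.74% and 0.483% of all tested genes without overlap in these directions. Median log2 fold changes differed in size, 4.73 for the genes higher in cartilage and -1.64 for those higher in muscle, with genes at 0 in a tissue set to a floor of 3 counts over its 6 libraries. No count was found in any muscle library for 68 of the 173 genes, whereas 6 of the 83 had none in cartilage. The median over all tested genes was -0.19. Without wild-type muscle replicate 1, 184 genes were higher in cartilage and 164 in muscle, including 162 and 78 of those above.

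In this fit, with the floor for genes at 0, genes of the cartilage matrix had the highest median difference of the 35 gene lists examined. With the low-count filter filterByExpr the fitted median was 7.98 on 20 of these genes and 9.12 on 5 gastric genes. All 9 tested gastric genes were at 0 in muscle, so that their median is a lower bound. Of 21 tested members of a list of cartilage matrix genes, 18 were higher in cartilage and none was higher in muscle, with a median log2 fold change of 7.15. Together they took 1.32% ± 0.817 of the counts in cartilage (SD, n = 6; range 0.386% to 2.76%) and 0.0240% ± 0.00591 in muscle (SD, n = 6). In the 6 bone libraries of the same series the list took 1.12% of the counts (range 0.837% to 1.54%), within the range of cartilage. Without wild-type muscle replicate 1 the number of these genes higher in cartilage was 16.

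Type II collagen, the fibril former of hyaline cartilage, is encoded by Col2a1 (chromosome 15, 97975602 to 98004695, minus strand, GENCODE M21 on mm10, as for the other genes). It was at 3657, 5030.4 and 3176 CPM in wild-type and 9427, 3347 and 1232 CPM in Scx-/- cartilage. In muscle it had 123 CPM in wild-type replicate 1, on 6 counts, 20.9 CPM in wild-type replicate 3, and no count in the other 4 libraries. The lowest cartilage library therefore lay above every muscle library, and the log2 fold change was 9.44 ± 1.57 (adjusted p = 0.0169, edgeR quasi-likelihood test). Leaving out any one Scx-/- muscle library moved the adjusted p to between 0.0635 and 0.0647 by the same edgeR test. Acan, the aggrecan core protein that binds water in cartilage, was at 782, 430.0 and 348 CPM in wild-type and 1165, 313 and 111 CPM in Scx-/- cartilage. It had no count in muscle, so that its mean was at least 536-fold higher in cartilage (adjusted p = 6.56e-39, edgeR quasi-likelihood test).

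The largest bound belonged to Col10a1 (chromosome 10, 34389981 to 34397085, plus strand), the collagen of hypertrophic chondrocytes. Its levels were 2954, 2068 and 1080.4 CPM in wild-type and 5210.3, 1322 and 228 CPM in Scx-/- cartilage, a spread over the 6 libraries similar to that of Acan in that Scx-/- replicate 1 was highest and Scx-/- replicate 3 lowest for both. With no count in muscle it was at least 2191-fold higher in cartilage (adjusted p = 5.51e-20, edgeR quasi-likelihood test). This call was lost under RLE scaling, library totals and without wild-type muscle replicate 1 (adjusted p of 0.0636, 0.0598 and 0.0840 by edgeR) and in Scx-/- libraries alone (adjusted p = 0.507 by edgeR), although the muscle counts were 0 in every fit. Lect1, which encodes the angiogenesis inhibitor chondromodulin, was at 108 to 559 (median 309.8) CPM in cartilage and at 0 in muscle, at least 333-fold higher. Lower bounds of the same kind were 295 for 3110079O15Rik (Snorc, a chondrocyte proteoglycan), 275 for Col9a3 and 238 for Col9a1, which encode chains of type IX collagen, and 174 for Matn3, a filament-forming matrilin.

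Other cartilage matrix genes had a few counts in muscle. Hapln1, the link protein that fixes aggrecan to hyaluronan, was at 121 to 974 (median 354) CPM in cartilage and 0 to 7.43 (median 0) CPM in muscle (log2 fold change 7.68 ± 0.67). Comp, a pentameric thrombospondin of cartilage and tendon, was at 148 to 491 (median 277) CPM in cartilage and 0 to 20.9 (median 0) CPM in muscle (5.46 ± 0.63). Neither gene overlapped between the tissues. Prg4, the lubricin of the joint surface, had 0 to 134 (median 82.9) CPM in cartilage and 0 to 31.3 (median 5.05) CPM in muscle and did not pass (adjusted p = 0.137, edgeR quasi-likelihood test). The plot of marker genes shows both gene sets library by library.

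**Figure D1:**
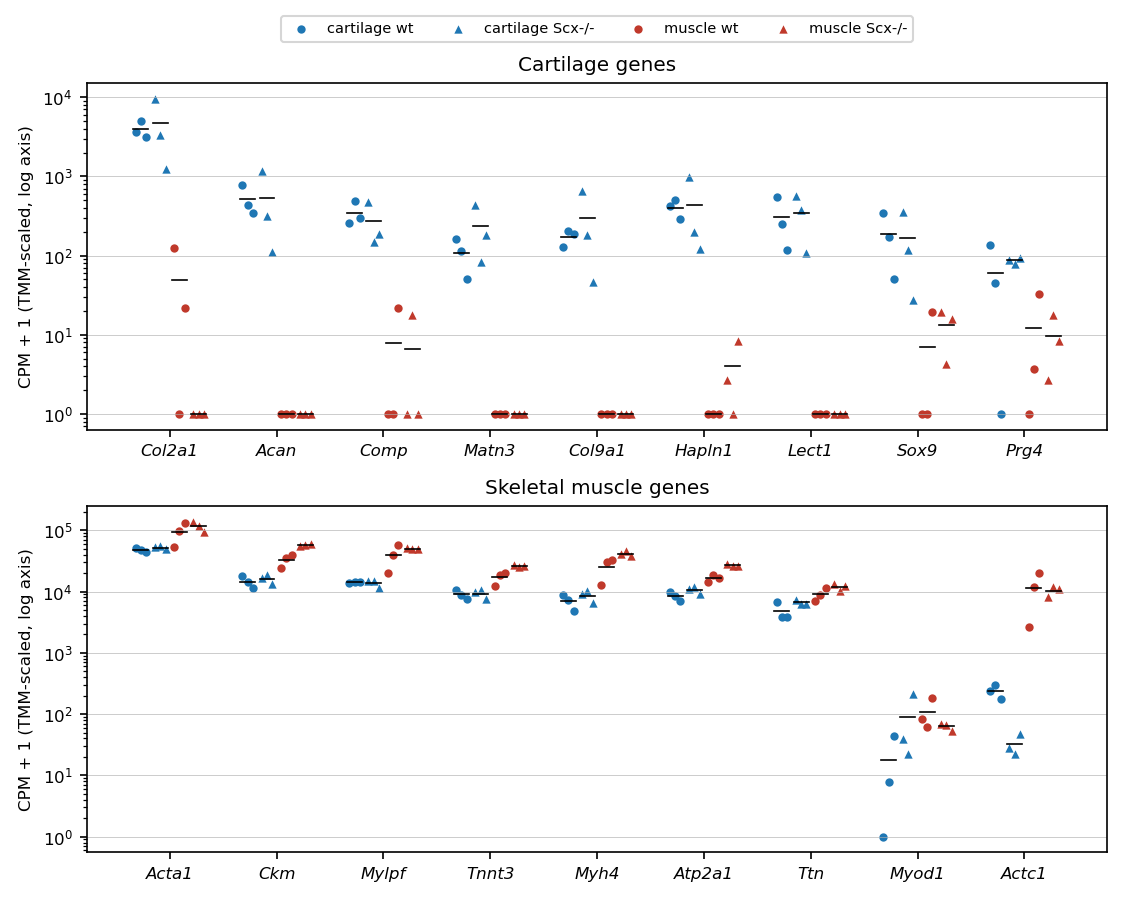
Levels of 9 cartilage and 9 skeletal muscle genes in each of the 12 libraries, as TMM-scaled CPM + 1 on a log axis; circles are wild-type, triangles Scx-/-, and bars group means. Acan, Matn3, Col9a1 and Lect1 lie at 0 in all 6 muscle libraries, whereas Acta1 lies at or above 44482 CPM in all 12 and Actc1 reaches at most 297 CPM in cartilage.

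Among 12 tested regulators of chondrocytes, 4 were higher in cartilage. The number was 3 to 5 with any one library left out, 7 under library totals and by DESeq2, and 0 in wild-type libraries alone. The list took 0.0799% of the counts in cartilage, 0.0130% in muscle and 0.128% in the bone libraries. Sox9, the transcription factor needed for chondrocyte fate, was at 26.1 to 354 (median 144) CPM in cartilage and 0 to 18.3 (median 9.08) CPM in muscle (4.12 ± 0.70, adjusted p = 1.00e-06, edgeR quasi-likelihood test). The others were Runx2, a factor of hypertrophy and bone formation, Mia, a small secreted chondrocyte protein, and Wwp2, a ubiquitin ligase, with log2 fold changes of 6.30, 8.32 and 2.41. Wwp2 ranged from 24.8 to 293 (median 112) CPM in cartilage and overlapped with muscle. Its call was lost without 6 of the 12 libraries in turn. Over all tested genes 1.09% were higher in cartilage. Of 20 enzymes of glycosaminoglycan synthesis, 1, Papss2, which makes the sulfate donor, passed (3.43 ± 0.65), and the list had a median of 1.19. The number was 2 without wild-type muscle replicate 1, wild-type cartilage replicate 1 or wild-type cartilage replicate 3 and under RLE scaling, library totals, filterByExpr and DESeq2, and 0 in wild-type libraries alone.

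Of 14 collagen genes of general connective tissue, 4 were higher in cartilage, and 8 under library totals. Col1a1, the main collagen chain of bone, tendon and skin, was at 6411, 31394 and 29744 CPM in wild-type and 10767, 12472 and 12917 CPM in Scx-/- cartilage, and at 2728, 4674 and 8573 CPM and 3720.4, 2686 and 1694 CPM in muscle. With TMM only the lowest cartilage library, wild-type replicate 1, lay below the highest muscle library, wild-type replicate 3 (log2 fold change 2.12 ± 0.21, adjusted p = 2.19e-19, edgeR quasi-likelihood test). Col1a2, its partner chain, had a log2 fold change of 1.91 ± 0.21. Without wild-type muscle replicate 1 the edgeR adjusted p was 0.0739 for Col1a1 and 0.1000 for Col1a2, while the log2 fold changes were 2.02 and 1.84. Col3a1, typical of loose tissue and muscle sheaths, was at 875 to 3536 (median 1688) CPM in cartilage and 554 to 3258 (median 2770.4) CPM in muscle, with no call. The other 2 that passed, Col12a1 and Col8a1, had log2 fold changes of 3.37 and 2.96.

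Of 11 small leucine-rich proteoglycan genes, 6 were higher in cartilage, and all of these but Fmod had no overlap. On library totals neither Fmod nor Col1a1 overlapped. Omd, a keratan sulfate proteoglycan of mineralized tissue, changed most with 4.75 ± 0.74, at 30.4 to 351 (median 165) CPM in cartilage and 0 to 26.1 (median 0.828) CPM in muscle. Fmod, Prelp, Lum, Bgn and Aspn followed with log2 fold changes of 3.67, 3.02, 1.92, 1.83 and 1.75. Without wild-type muscle replicate 1 the edgeR adjusted p of Fmod was 0.264, and the call of Aspn was lost in 9 of 23 alternative fits. Dcn, the decorin gene, was at 1096 to 2263 (median 1518) CPM and 410.2 to 1376 (median 1117) CPM and did not pass. Among 21 genes of collagen processing, the 4 that passed were Plod2, a lysyl hydroxylase, Serpinh1, the collagen chaperone, and the crosslinking oxidases Lox and Loxl3, with log2 fold changes of 5.10, 1.82, 2.15 and 4.18. None of 17 chaperones of the endoplasmic reticulum and none of 6 tendon genes passed, where the background was 1.61% of all genes in either direction. For tendon the number was 1 without wild-type muscle replicate 1, wild-type muscle replicate 3 or wild-type cartilage replicate 1, 1 under RLE scaling, by DESeq2 and in Scx-/- libraries alone, and 2 under library totals. Tnmd, a membrane protein of tendon cells, was at 32.6 to 171 (median 79.3) CPM in cartilage and 0 to 112 (median 3.34) CPM in muscle (adjusted p = 0.0681, edgeR quasi-likelihood test).

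Scx itself was near the limit of detection. The 3 wild-type cartilage libraries held 0, 7 and 1 counts and the Scx-/- ones 9, 0 and 0, while muscle held 0, 11 and 7 counts in wild-type and none in Scx-/- libraries. Scx-/- cartilage replicate 1 thus had counts on the deleted gene. The part of the gene that the allele lacks is not given in the sources used here, so whether these counts go against the label cannot be told. Without Scx-/- cartilage replicate 1, 156 genes were higher in cartilage and 62 in muscle. The tissue difference then depended on genotype for 1 gene, against 3 with all libraries.

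Genes of bone and marrow accompanied the cartilage genes. Of 14 osteoblast and osteocyte genes, 7 were higher in cartilage, at 0.255% ± 0.0822 of counts against 0.00977% ± 0.00562 in muscle and 0.741% in the 6 bone libraries of the same series. Spp1, the matrix phosphoprotein osteopontin, was at 1074 to 1907 (median 1392) CPM in cartilage and 0 to 42.7 (median 18.5) CPM in muscle (6.01 ± 0.42, adjusted p = 1.04e-42, edgeR quasi-likelihood test). Ibsp, bone sialoprotein, was at 156 to 580.2 (median 200.3) CPM in cartilage and had no count in muscle, at least 268-fold higher, and Bglap, the osteoblast hormone osteocalcin, at least 52.7-fold. Sp7, Dmp1, Mepe and Smpd3 also passed. The call of Mepe was lost in each genotype alone, by DESeq2 (adjusted p = 0.280) and without Scx-/- cartilage replicate 3 (adjusted p = 0.236 by edgeR).

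Of 9 osteoclast genes, 3 passed: Mmp9, a gelatinase, with 100.4 to 329 CPM in cartilage and none in muscle, Ctsk, the collagen-degrading cathepsin K (4.03 ± 0.56), and Acp5, the acid phosphatase of osteoclasts (4.34 ± 0.69). Acp5 was not called under RLE scaling, library totals, filterByExpr or without wild-type muscle replicate 1 (adjusted p of 0.105, 0.121, 0.0574 and 0.224 by edgeR). Mmp13, the collagenase of hypertrophic chondrocytes and osteoblasts, was at 77.6 to 256 (median 131) CPM in cartilage and had no count in muscle. Of the neutrophil granule genes, 6 of 13 passed and of the erythroid genes 5 of 13. The erythroid count was 2 without any one of wild-type muscle replicates 2 and 3, Scx-/- muscle replicates 2 and 3 and wild-type cartilage replicate 3, 3 without Scx-/- cartilage replicate 3, and 1 in each genotype alone. Ngp, a granule protein, ranged from 3.81 to 591 (median 101) CPM in cartilage and was at 0 in muscle, with the lowest value in Scx-/- replicate 1 and the highest in Scx-/- replicate 2. Marrow genes thus varied widely among cartilage libraries, and the share of the neutrophil list ran from 0.00620% to 0.660%. Their part in other differences was not tested. None of the B cell, macrophage, endothelial, adipocyte, keratinocyte and smooth muscle genes passed in either direction (9, 11, 12, 12, 12 and 11 tested), while 1 macrophage gene was called without wild-type muscle replicate 2 and 1 adipocyte gene without wild-type muscle replicate 1, under RLE scaling, library totals and filterByExpr, with thinning to 200000 counts and by DESeq2. DESeq2 also called 1 smooth muscle gene. Over all tested genes 1.61% were called in either direction, so 0 calls in lists of this size do not show that these cell types were alike. Of 36 BMP and TGF-beta genes 1 passed, Grem1, a secreted BMP antagonist with no count in muscle (31.1-fold as a lower bound). The number was 3 without wild-type muscle replicate 1, 2 without replicate 1 of wild-type or Scx-/- cartilage, 0 without any one Scx-/- muscle library or Scx-/- cartilage replicate 3, 3 under RLE scaling and library totals, and 5 by DESeq2. None of 17 IGF and FGF genes passed. The share of all tested genes higher in cartilage was 1.09%, beside which counts of 0 or 1 in such lists say little about the lists. Of 12 protease genes 2 passed, Timp1, a metalloprotease inhibitor, and Mmp13, and the number was 5 under RLE scaling, library totals, filterByExpr and DESeq2. It was 3 without wild-type muscle replicate 1, and Mki67, a marker of dividing cells, was the only one of 20 proliferation genes (4.39 ± 1.19). The call of Mki67 was lost in 9 of 23 alternative fits, among them those without any one Scx-/- muscle library (adjusted p of 0.106 to 0.111 by edgeR), and that of Grem1 in 6 of 21.

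Counts from muscle genes were abundant in both tissues. Acta1 (chromosome 8, 123891769 to 123894751, minus strand), the actin of adult skeletal muscle, was at 51406, 48007 and 44482 CPM in wild-type and 52465, 55304 and 48753 CPM in Scx-/- cartilage, and at 53311, 97622 and 131892 CPM and 136539, 116704 and 94547 CPM in muscle. With TMM, wild-type muscle replicate 1 fell within the range of cartilage and the other 5 lay above it (log2 fold change -1.06 ± 0.15, adjusted p = 1.26e-10, edgeR quasi-likelihood test). On library totals the Acta1 levels did not overlap, at 51956 to 61950.0 CPM in cartilage and 73449.6 to 106695 CPM in muscle, where that replicate had 85468 CPM. Genes of the fast-twitch sarcomere took 7.32% ± 0.764 of the counts in cartilage, more than the cartilage matrix list did in each of the 6 libraries, and 14.8% ± 1.15 in muscle (SD, n = 6 each). In bulk tissue, fewer muscle fibres and less RNA per fibre cannot be told apart, and the source of the muscle counts in cartilage libraries was not tested.

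**Figure D2:**
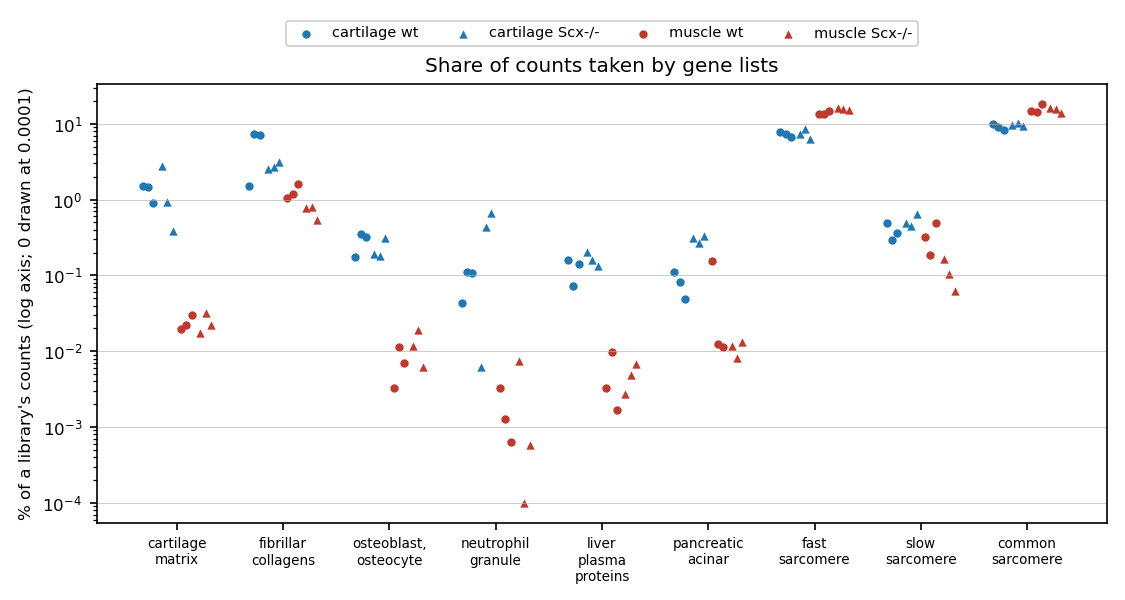
Share of each library's counts taken by 9 gene lists on a log axis, in cartilage (blue) and muscle (red) libraries of wild-type (circles) and Scx-/- (triangles) mice. Fast sarcomere genes took 6.39% to 8.52% of counts in cartilage, above the 0.386% to 2.76% of the cartilage matrix list.

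Of 11 fast-twitch sarcomere genes, 8 were higher in muscle and 2 in cartilage. Myh4, the IIB myosin heavy chain (chromosome 11, 67238029 to 67260446, plus strand), was at 8871, 7327 and 4765 CPM in wild-type and 8989.6, 10146 and 6530.2 CPM in Scx-/- cartilage, and at 12923, 29899 and 33167 CPM and 40721, 45336 and 38363 CPM in muscle. All cartilage libraries lay below all muscle libraries, and the fitted difference was 4.19-fold (log2 fold change -2.07 ± 0.19, adjusted p = 1.27e-25, edgeR quasi-likelihood test). Mylpf, the fast regulatory light chain, was 3.19-fold higher in muscle, at 11557 to 14756 (median 14165) CPM in cartilage and 20184 to 56834 (median 49180.0) CPM in muscle. Tnnt3, Tnni2 and Tnnc2, the fast troponins, had log2 fold changes of -1.21, -1.21 and -1.45.

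The 2 genes that went the other way were the heavy chains of the less fast fibres. Myh2 (IIA) was at 3527, 1901 and 2577 CPM in wild-type and 3090.4, 2395 and 2298 CPM in Scx-/- cartilage, and at 1087, 1109 and 1739 CPM and 1812, 586 and 626 CPM in muscle. It was 2.29-fold higher in cartilage with no overlap (adjusted p = 0.00152, edgeR quasi-likelihood test) and kept its call in each of the 12 fits without 1 library. Myh1 (IIX) was 1.89-fold higher, at 3713 to 6912 (median 5662) CPM in cartilage and 1887 to 5504 (median 2665) CPM in muscle with overlap, and without overlap on library totals (adjusted p = 0.00829, edgeR quasi-likelihood test). Its call was lost without Scx-/- muscle replicate 2, Scx-/- muscle replicate 3 or wild-type cartilage replicate 3 (adjusted p of 0.0581, 0.0755 and 0.0909 by edgeR). Myh7 (type I) was 3.89-fold higher, at 348 to 786 (median 502) CPM in cartilage and 7.43 to 581 (median 91.5) CPM in muscle with overlap (adjusted p = 0.000934, edgeR quasi-likelihood test). That call was lost without wild-type muscle replicate 1, without Scx-/- muscle replicate 3 and with the low-count filter filterByExpr (adjusted p of 0.422, 0.0648 and 0.231 by edgeR). In wild-type libraries alone none of the 3 was called. These 3 genes were singled out after their values were seen.

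Shares within a protein family do not depend on the scaling between libraries, and are given as a description with no test. Among counts of the fast heavy chains, Myh1 made up 28.2% to 46.9% (median 31.2%) in cartilage and 5.45% to 11.9% (median 7.58%) in muscle. Myh2 made up 12.9% to 19.99% (median 16.5%) in cartilage and 1.20% to 6.84% (median 3.54%) in muscle, and Myh7 made up 1.83% to 4.75% (median 3.08%) and 0.0180% to 1.52% (median 0.311%) of all 4 adult heavy chains. None of these 3 shares overlapped between the tissues.

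Tnnt1, the slow troponin T, made up 3.19% to 8.77% (median 5.08%) of Tnnt1 and Tnnt3 counts in cartilage and 0.212% to 4.11% (median 1.08%) in muscle, with overlap. For the slow troponins Tnni1 and Tnnc1 and the slow light chain Myl3 the shares overlapped as well. Of 9 slow-twitch sarcomere genes Myh7 alone was called, with a list median of 0.99, and 4 were called under RLE scaling, under library totals or without wild-type muscle replicate 3. In Scx-/- libraries alone the median was 2.48 and 7 of the 9 were higher in cartilage, in wild-type libraries alone it was -0.47 with none called, and the difference between genotypes was tested gene by gene only, where Myl2 passed. Mb, the oxygen store myoglobin of oxidative fibres, was 2.47-fold higher in cartilage (adjusted p = 0.000980, edgeR quasi-likelihood test), against 4 of the 20 muscle energy genes that were higher in muscle, a number that was 9 without wild-type muscle replicate 1 and 2 without Scx-/- cartilage replicate 1 or under library totals. Its call was lost without Scx-/- muscle replicate 2 and with filterByExpr (adjusted p of 0.0503 and 0.0734 by edgeR).

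**Figure D3:**
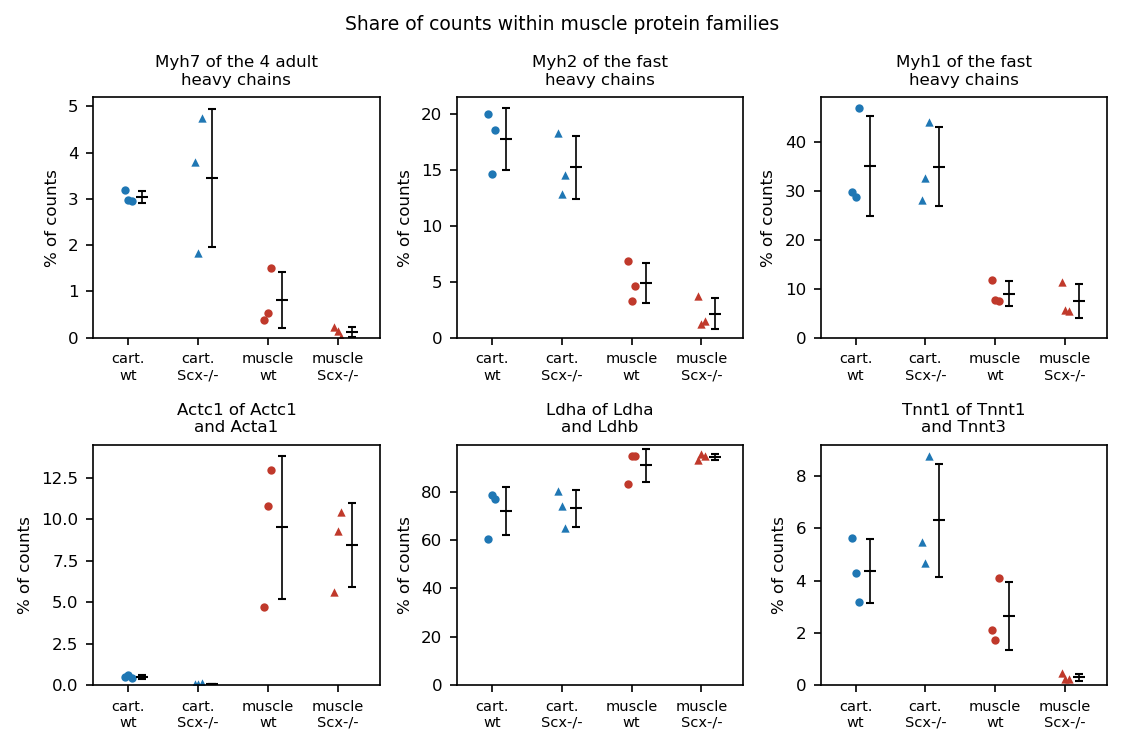
Share of counts within 6 pairs or sets of related muscle genes (vertical axis, percent) in each library, with group mean and SD (n = 3) to the right of the points. Myh7, Myh2, Myh1, Actc1 and Ldha do not overlap between the 6 cartilage and 6 muscle libraries.

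Ldha encodes the subunit that predominates in glycolytic muscle and Ldhb the one that predominates in heart and oxidative tissue. Ldha made up 60.6% to 80.3% (median 75.7%) of the counts of both in cartilage and 83.2% to 95.6% (median 94.9%) in muscle. Ldhb was at 584 to 1398 (median 683) CPM in cartilage and 228 to 487 (median 307) CPM in muscle (1.27 ± 0.35, adjusted p = 0.0254, edgeR quasi-likelihood test), a call that was lost without any 1 of 6 libraries. Over 25 families with a form typical of adult muscle and forms of other tissues, 11 of 22 tested muscle forms were higher in muscle and none in cartilage, while of 29 other forms none was higher in muscle and 1, Ldhb, in cartilage. The muscle forms Eno3, Pygm, Slc2a4 and Fabp3 had no count in any of the 12 libraries. In heart too they made up 0% of their families, in the 1, 5, 3 and 5 libraries with counts of these families. Whether reads of these 4 genes could be counted at all was not tested, so their zeros do not show that the transcripts were absent.

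Of 32 sarcomere genes common to fast and slow fibres, 9 were higher in muscle and none in cartilage. The number higher in muscle was 12 without wild-type muscle replicate 1, 5 without wild-type muscle replicate 3 or Scx-/- muscle replicate 1, and 5 under RLE scaling and library totals, where 1 and 4 members were higher in cartilage. Their median log2 fold change was -0.70. Actc1, the cardiac alpha-actin (chromosome 2, 114047282 to 114053548, minus strand), was at 239, 297 and 177 CPM in wild-type and 26.6, 21.7 and 45.6 CPM in Scx-/- cartilage, and at 2626, 11849 and 19711 CPM and 8149, 11952 and 11024 CPM in muscle. The highest cartilage library reached 297 CPM and the lowest muscle library 2626 CPM (log2 fold change -6.85 ± 0.79, 115-fold, adjusted p = 0.00151, edgeR quasi-likelihood test). As a share of Actc1 and Acta1 counts it made up 0.0393% to 0.615% (median 0.245%) in cartilage and 4.69% to 13.0% (median 9.87%) in muscle.

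Genes of excitation and calcium handling followed the fast sarcomere, with 7 of 22 higher in muscle, none in cartilage and 10 without wild-type muscle replicate 1. The number higher in muscle was 5 under RLE scaling and library totals, 1 in wild-type libraries alone and 11 in Scx-/- libraries alone. Pvalb, the calcium buffer of fast fibres, was at 3824 to 7269 (median 6152) CPM in cartilage and 11938 to 30534 (median 29449.8) CPM in muscle, 4.40-fold apart with no overlap. Cacng1, a subunit of the muscle calcium channel, had a log2 fold change of -2.36 ± 0.42, and Atp2a1, the calcium pump of fast sarcoplasmic reticulum, -1.15 ± 0.19. Among energy genes, Ckm, the muscle creatine kinase, was 2.86-fold higher in muscle at 11555 to 18392 (median 15399) CPM in cartilage and 24512 to 59350.4 (median 47225) CPM in muscle. Pgam2, a muscle glycolytic enzyme, and Ampd1, the AMP deaminase of fibres, had log2 fold changes of -1.46 and -1.50. Both calls were lost in wild-type libraries alone. That of Ampd1 was also lost under library totals and without wild-type muscle replicate 3 or Scx-/- cartilage replicate 1 (adjusted p of 0.0868, 0.131 and 0.0509 by edgeR).

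Other genes with the largest differences in favour of muscle came from several processes. Hoxc10 (chromosome 15, 102966796 to 102971893, plus strand), a patterning gene of the lumbar trunk and hindlimb, had 0 counts in all cartilage libraries and 267, 69.4 and 31.3 CPM in wild-type and 123, 99.3 and 141 CPM in Scx-/- muscle, at least 67.2-fold higher in muscle (adjusted p = 4.87e-09, edgeR quasi-likelihood test). It was the only one of 25 tested Hox genes that passed. Gamt, which completes creatine synthesis, Mybph, a myosin-binding protein, and Hspb3, a small heat shock protein of muscle, had log2 fold changes of -3.37 ± 0.63, -3.28 ± 0.47 and -2.59 ± 0.70, none with overlap. Fdx1, a mitochondrial ferredoxin, and Vapb, a membrane contact protein of the endoplasmic reticulum, followed with -2.36 ± 0.66 and -2.22 ± 0.65. The calls of Hspb3, Fdx1 and Vapb were lost in 9, 11 and 15 of 23 alternative fits. Tmem8c, the fusion factor myomaker, was the only one of 16 myogenic genes to pass and held 81 counts in muscle and none in cartilage, but its call was lost in 20 of 22 alternative fits. The number of myogenic genes higher in muscle was 2 without wild-type muscle replicate 1 and 0 under RLE scaling, library totals and filterByExpr. Beside the 0.521% of all genes higher in muscle, 1 call among the Hox or the myogenic genes says little about either list. Myod1, the myogenic regulator, was at 0 to 209 (median 29.9) CPM in cartilage and 52.0 to 179.9 (median 66.8) CPM in muscle and did not pass.

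Of 9 genes of Schwann cells, the glia of peripheral nerve, 3 were higher in muscle. Mbp, a myelin protein, was at 21.7 to 225 (median 39.9) CPM in cartilage and 122 to 582 (median 376) CPM in muscle (-2.39 ± 0.48, adjusted p = 9.02e-05, edgeR quasi-likelihood test). Pmp22, also of myelin, had a log2 fold change of -1.74. Of 79 ribosomal protein genes, only Rpl3l, a form restricted to heart and skeletal muscle, was higher in muscle (-1.18 ± 0.33), and of 67 nuclear genes of the respiratory chain 2 were, Ndufv3 and Uqcrfs1. The respiratory count was 1 and 0 under RLE scaling and library totals, 11 without wild-type muscle replicate 1, and 0 without Scx-/- muscle replicate 1, Scx-/- muscle replicate 3 or Scx-/- cartilage replicate 3. The call of Rpl3l was lost in 14 of 23 alternative fits. Beside the 0.521% of all genes higher in muscle, the ribosomal count of 1 and the respiratory count of 2 say little about these lists. The fitted median of the ribosomal list was -0.14 and turned to 0.17 and 0.25 under RLE scaling and library totals. That of the respiratory list was -0.59, -0.32 and -0.20 in the same order.

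The 150 bases before the start of 4 muscle genes are shown because these genes carry the contrast, Myh4 and Mylpf as fast genes that were higher in muscle and Acta1 and Actc1 as the actin pair whose ratio differed. Capitals mark a CAGCTG E-box, a TATAAA box or a CArG box, the site of serum response factor; sequences are from RefSeq on GRCm38.p6, whose gene starts differ from the GENCODE ends given above.
Myh4, chr11:67237662-67237811, plus strand: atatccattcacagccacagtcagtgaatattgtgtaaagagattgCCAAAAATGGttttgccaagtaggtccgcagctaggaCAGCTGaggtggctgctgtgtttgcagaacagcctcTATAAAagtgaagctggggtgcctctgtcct
Mylpf, chr7:127211458-127211607, plus strand: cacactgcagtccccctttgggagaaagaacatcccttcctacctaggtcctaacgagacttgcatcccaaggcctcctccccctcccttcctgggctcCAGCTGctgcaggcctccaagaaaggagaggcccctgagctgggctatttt
Acta1, chr8:123894776-123894925, minus strand: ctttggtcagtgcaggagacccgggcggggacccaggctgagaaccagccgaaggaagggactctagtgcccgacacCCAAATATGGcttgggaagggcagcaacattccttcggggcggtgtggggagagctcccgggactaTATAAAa
Actc1, chr2:114052876-114053025, minus strand: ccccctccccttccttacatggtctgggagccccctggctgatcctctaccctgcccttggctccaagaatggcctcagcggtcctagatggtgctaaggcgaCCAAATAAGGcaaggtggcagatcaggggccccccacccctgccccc
Both actin promoters held a CArG box, from -73 to -64 in Acta1 and from -47 to -38 in Actc1, counted from the base before the start. Myh4 held a CArG box, an E-box and a TATA box, and Mylpf an E-box alone.

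Over the 250 bases before the start, on both strands, CAGCTG was found in 25.3% of the 79 promoters of 58 matched genes higher in muscle, in 13.6% of the 140 promoters of 120 matched genes higher in cartilage, and in 13.0% of all 32851 promoters. The CArG box was found in 6.33%, 0.714% and 1.47%, and CTA followed after any 4 bases by TAG, the core of the MEF2 site, in 3.80%, 2.86% and 3.20%. TATAAA was found in 10.1%, 22.1% and 12.4%. ACAAAG, a core of SOX sites, was found in 7.59%, 10.7% and 16.5%. Sites of different kinds overlapped in 72 of the 32851 promoters. These matches describe letters in a window and are not binding sites.

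Genes of digestive organs were also among those higher in cartilage. Liver plasma protein genes took 0.0722% to 0.201% of cartilage counts and 0.00169% to 0.00964% of muscle counts, and gastric genes took 0.0565% to 0.147% and none. Pancreatic enzyme genes took 0.0490% to 0.112% in wild-type and 0.269% to 0.327% in Scx-/- cartilage, and in muscle 0.155% in wild-type replicate 1, above each wild-type cartilage library, and at most 0.0132% in the other 5. Of 11 pancreatic genes 8 were called, none in wild-type libraries alone and 11 in Scx-/- libraries alone, and the interaction with genotype passed for none of them. These 3 lists were added after values were seen. Of the 173 genes higher in cartilage, 38 had a mean at least 100-fold higher in 1 of the other 14 tissues (CPM on library totals), 13 of them in liver, 13 in the samples labelled adipose, 10 in stomach, and 1 each in kidney and intestine. Alb, the serum albumin made by liver, was at 640.2, 225 and 459 CPM in wild-type and 803, 578 and 505 CPM in Scx-/- cartilage and had 2 counts over all muscle libraries (adjusted p = 5.12e-36, edgeR quasi-likelihood test). Tff1, a stomach mucus peptide, was at 149 to 434 (median 227) CPM and had none in muscle. Cartilage levels of these genes were 0.515% to 0.928% of the liver level for the liver genes, 0.333% to 0.714% for the stomach genes and 0.330% to 0.435% for the pancreatic genes found in the adipose samples. Without these 38 genes, 135 were higher in cartilage, and the origin of their counts was not tested. By highest mean over all 16 tissues, 41 of the 173 genes peaked in cartilage, 41 in bone and 18 in spleen, while 58 of the 83 genes higher in muscle peaked in muscle.

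The difference between cartilage and muscle depended on genotype for 3 genes (0.0188% of those tested; 859 at an unadjusted p under 0.05), by the interaction of tissue and genotype in the same edgeR test. For Actc1 the log2 difference between tissues was -5.58 in wild-type and -8.33 in Scx-/- mice (interaction -2.75 ± 0.47, adjusted p = 6.01e-05, edgeR quasi-likelihood test). In cartilage all 3 Scx-/- libraries, at 26.6, 21.7 and 45.6 CPM, lay below the wild-type ones, whereas in muscle the genotypes overlapped. The interaction was called in 18 of 20 alternative fits and not with filterByExpr (adjusted p = 0.692) or DESeq2 (adjusted p = 0.0948).

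Fmod, fibromodulin of tendon and cartilage, and Myl2, the slow and cardiac regulatory light chain, were the other 2 genes. Fmod was at 20.5, 50.8 and 342 CPM in wild-type and 3.29, 9.93 and 8.92 CPM in Scx-/- muscle, and at 456, 559.7 and 475 CPM and 932, 269.5 and 251 CPM in cartilage (interaction 4.23 ± 0.91, adjusted p = 0.0250, edgeR quasi-likelihood test). Myl2 was at 677, 234 and 1082 CPM in wild-type and 107, 41.4 and 26.7 CPM in Scx-/- muscle, and at 711, 290.1 and 332 CPM and 510.0, 356 and 518 CPM in cartilage (interaction 3.56 ± 0.79, adjusted p = 0.0313, edgeR quasi-likelihood test). For both genes the Scx-/- muscle libraries lay below all wild-type ones, and cartilage overlapped between genotypes. Each of these interactions was called in 9 of 20 alternative fits. Without wild-type muscle replicate 3, which was highest for both, the edgeR adjusted p was 1.00 for each, with interactions of 2.40 and 2.97. Without Scx-/- cartilage replicate 1, which held counts on Scx, the edgeR adjusted p was 0.539 for Fmod and 0.223 for Myl2, with interactions of 3.33 and 3.48.

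**Figure D4:**
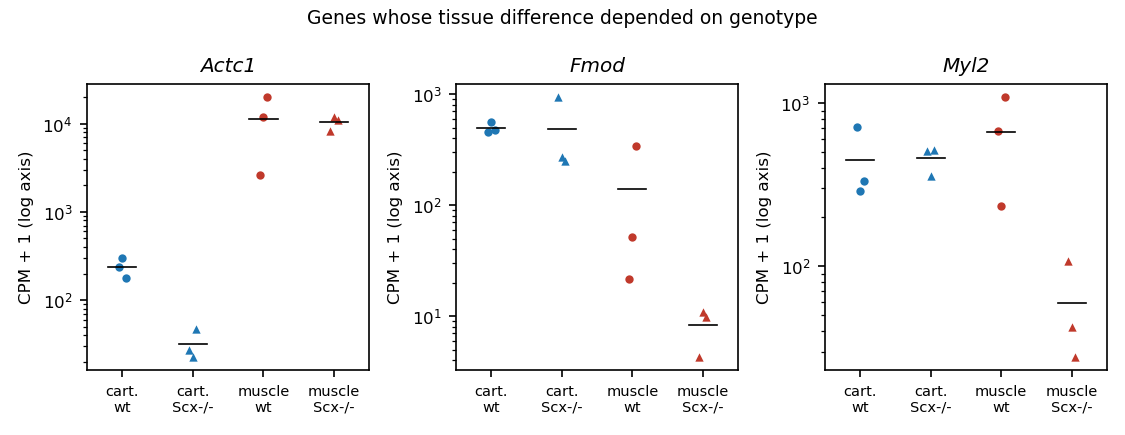
Levels of Actc1, Fmod and Myl2 as TMM-scaled CPM + 1 (log axis) in the 3 libraries of each tissue and genotype, with group means as bars. Actc1 is lower in Scx-/- than wild-type cartilage, and Fmod and Myl2 are lower in Scx-/- than wild-type muscle.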

How the data were processed

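RNA of 96 libraries from 16 tissues was sequenced from transcript 3′ ends in barcoded pools, and the 12 cartilage and muscle libraries were analysed here. The deposited values are raw counts per gene, which the authors made by aligning reads to mm10 with Bowtie2 at default settings and counting with HTSeq. No source used here gives the tool versions, the gene annotation, strandedness or whether molecules were tagged. Genes that share sequence, such as the myosin heavy chains, may therefore share reads.

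Counts were fitted with edgeR 4.0.16 (limma 3.58.1, R 4.3.3) by the robust quasi-likelihood test on genotype and tissue, with TMM scaling and all genes holding at least 1 count in the 12 libraries. Alternatives were RLE scaling, library totals, TMM without the 100 most abundant genes, filterByExpr, DESeq2 1.42.0, a replicate block, thinning to 200000 counts, 1 genotype alone, stricter thresholds and leaving out each library. Those without liver, gastric and pancreatic genes, without genes 100-fold higher elsewhere, and filterByExpr without wild-type muscle replicate 1 were chosen after seeing the data. The members and lists were chosen with earlier results of these data known.

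Named genes were the 10 largest differences in each direction with no overlap and a mean of at least 100 CPM, marker genes, the 3 most abundant members of each list, the 5 most abundant genes of each tissue, Scx, up to 5 interaction genes and the muscle isoform families. Some genes that met this rule are not reported here. Other list members were named after their values were seen. A gene at 0 in a tissue was given a floor of 3 counts over its 6 libraries, and floors cover counting error only. In simulated counts the tissue test recovered 18 of 100 genes changed 4-fold and 64 of 100 changed 16-fold, and called 4 of 14941 unchanged genes. For differences between genotypes in the tissue effect, recovery was 1 of 100 at 4-fold and 20 of 100 at 16-fold. Changed genes were drawn only from those with a mean of at least 20 CPM, so recovery of scarcer genes was not measured. Figures were drawn with matplotlib 3.10.9 in Python 3.11.15.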

Additional observations from a re-analysis of the deposited data

Results flagged for a closer look

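Of 311 groups of 6 libraries (a gene in a tissue) that were examined, 47 held a library far from the other 5 by Dixon's criterion of 0.625, 39 of them high and 8 low, and 46 are given here. The criterion gives about 1 in 20 groups by chance only where values are normally distributed, and no chance rate was worked out for these CPM. All values are TMM-scaled CPM.

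Scx-/- cartilage replicate 1 was the highest for 3110079O15Rik (757), Col9a1 (658), Matn3 (434) and Pgc (301). Wild-type cartilage replicate 1 was the highest for Ldhb (1398) and Cox8b (1799). Wild-type cartilage replicate 1 was the lowest for Mmp9 (100.4). Wild-type cartilage replicate 2 was the highest for Ibsp (580.2), Hbb-bs (1775) and Myl12b (297). Wild-type cartilage replicate 2 was the lowest for Rpl4 (389). Scx-/- cartilage replicate 3 was the highest for Myod1 (209), Cd79b (81.5), Hoxd8 (81.5), Alas2 (769) and Fbp2 (166). Scx-/- cartilage replicate 3 was the lowest for Mylpf (11560.0). Scx-/- cartilage replicate 2 was the highest for Pecam1 (178) and Mcm6 (222). Wild-type cartilage replicate 3 was the highest for Slc25a5 (289) and Actn1 (102).

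Wild-type muscle replicate 1 was the highest for Extl1 (226), Ampd3 (144), Ctrb1 (164) and Cela1 (103). Wild-type muscle replicate 1 was the lowest for Pvalb (11940.0), Pgam2 (2256), Atp5g3 (964), Rps14 (61.5) and Ldha (1620.0). Wild-type muscle replicate 3 was the highest for Myod1 (179.9), Tnmd (112), Rrm2 (41.7), Mcm6 (44.3), Tnnt1 (866), Thbs4 (326) and Fmod (342). Wild-type muscle replicate 2 was the highest for Hbb-bs (519.5), Ctss (128), Pygb (52.1), Myl6 (56.1) and Fabp5 (36.1). Scx-/- muscle replicate 2 was the highest for Wwp2 (77.8). Scx-/- muscle replicate 1 was the highest for Hba-a1 (1948), Alas2 (367) and Hbb-b1 (23390.0).

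The difference between the tissues, in Scx-/- minus wild-type mice, was -2.75 on the log2 scale for Actc1, 4.23 for Fmod and 3.56 for Myl2, each past an adjusted p of 0.05 in the edgeR interaction test.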

How the results depend on the processing

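No gene called in either direction was called in the opposite one under any alternative run. Of 5612 values for 247 genes under 23 alternatives, 5051 kept their side of the threshold, 446 lost the call and 115 gained it. Of these genes 135 were called, and 99 of them lost the call in at least 1 alternative, 43 only in wild-type libraries alone and 43 in at least 1 of the fits without a library. Leaving out each library in turn gave 122 to 184 genes higher in cartilage, 52 to 164 higher in muscle and 1 to 8 with an interaction. The highest of each came without wild-type muscle replicate 1. Library totals gave 269, 46 and 11, so that 85.4% of calls were higher in cartilage against 67.6% with TMM. RLE scaling gave 12 interaction genes and 80.3% of calls higher in cartilage. DESeq2 gave 298 genes higher in cartilage and 8 interaction genes, and filterByExpr gave 5. Thinning left 1 interaction gene. Wild-type libraries alone gave 46 and 15 calls, Scx-/- libraries alone 132 higher in cartilage (46.8% of calls) and 150 higher in muscle, and filterByExpr without wild-type muscle replicate 1 163 higher in muscle. Requiring no overlap left 85 and 34. The median log2 fold change of the 8049 genes at 10 CPM or more was -0.07, and 0.22 and 0.35 under RLE scaling and library totals. The cause of these shifts was not tested. Wild-type muscle replicate 1 held 30409 counts.

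With the replicate number as a block, 125 genes were higher in cartilage, 55 in muscle and 1 had an interaction. By edgeR with the block, Actc1 had a log2 fold change of -6.79 (adjusted p = 0.0938) and Col2a1 of 9.61 (adjusted p = 0.190), neither of them called. Same-numbered cartilage and muscle libraries deviated together with r of 0.03, 0.07 and 0.06 in wild-type and -0.08, -0.05 and -0.01 in Scx-/- mice over 2619 genes, so that the numbers were not taken as pairs. Each wild-type cartilage library correlated best with its own number, and no Scx-/- one did.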
